A study of Mus musculus with 6 samples.

Results

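Striated muscle cells and most other cells use different genes for the same energy enzymes. The 10 genes described here are 5 such pairs, taken by name and matched to Ensembl IDs by symbol: Pfkm and Pfkp, Eno3 and Eno1, Pygm and Pygl, Pgam2 and Pgam1, and Ckm and Ckb, the muscle-type isoform first. They are 10 of the 54232 gene IDs in the deposited counts, and all 10 were among the 15763 genes with enough counts to be tested. RNA was sequenced from mouse esophagus enriched for invading cells. The mice were 8 weeks old at the start, drank water with 100 µg/ml of the carcinogen 4-NQO (4-nitroquinoline 1-oxide) for 16 weeks, and then drank normal water for 12 weeks. From 2.5 weeks before sacrifice they were given 10 µg of antibody into the peritoneum 2 times a week, either DTA-1, which activates the immune receptor GITR, or an isotype control. Both groups therefore carry the carcinogen treatment, and neither the strain nor the sex is named in the labels. Each group has 3 libraries, which the labels do not say are separate mice, so each p-value reflects sample-to-sample spread that could in part be technical.

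Each pair carries out 1 chemical step. Phosphofructokinase (Pfkm, Pfkp) commits sugar to glycolysis, phosphoglycerate mutase (Pgam2, Pgam1) and enolase (Eno3, Eno1) act later in the same pathway, glycogen phosphorylase (Pygm, Pygl) releases glucose units from glycogen, and creatine kinase (Ckm, Ckb) moves phosphate between ATP and creatine. Striated muscle relies on the muscle-type forms, while Eno1 and Pgam1 serve most other tissues, Pygl is best known from liver, Pfkp from platelets and Ckb from brain and smooth muscle. The mouse esophagus has a squamous lining on the inside and a coat of largely striated muscle on the outside, so its RNA can hold both sets.

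The sequences just upstream of the genes are shown for both mutase genes, the pair with the largest difference in ratio between the groups. They are also shown for both enolase genes, of which Eno1 is the non-muscle gene with E-boxes. Ckb is shown as the gene with the exact letters TATAAA. The sequences are the 250 bases before a RefSeq transcription start on GRCm38.p6, written 5′ to 3′ on the gene's strand and outside annotated exons. Capitals mark 3 searched motifs on either strand: the E-box CANNTG, the TATA box form TATAAA and the GC box GGGCGG. The Pgam2 window is chr11:5803797-5804046 (minus strand), Pgam1 is chr19:41911621-41911870 (plus), Eno3 is chr11:70656926-70657175 (plus), Eno1 is chr4:150236458-150236707 (plus, the first of its RefSeq starts) and Ckb is chr12:111672339-111672588 (minus).
Pgam2: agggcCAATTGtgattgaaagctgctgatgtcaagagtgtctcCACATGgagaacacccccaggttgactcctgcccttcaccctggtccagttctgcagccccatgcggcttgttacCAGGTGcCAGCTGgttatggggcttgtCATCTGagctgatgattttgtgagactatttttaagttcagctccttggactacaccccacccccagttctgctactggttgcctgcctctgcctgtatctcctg
Pgam1: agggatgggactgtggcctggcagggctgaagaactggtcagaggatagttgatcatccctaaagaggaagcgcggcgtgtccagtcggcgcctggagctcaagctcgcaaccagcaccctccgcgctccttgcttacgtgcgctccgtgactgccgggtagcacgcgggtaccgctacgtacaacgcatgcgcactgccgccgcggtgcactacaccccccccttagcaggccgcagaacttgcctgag
Eno3: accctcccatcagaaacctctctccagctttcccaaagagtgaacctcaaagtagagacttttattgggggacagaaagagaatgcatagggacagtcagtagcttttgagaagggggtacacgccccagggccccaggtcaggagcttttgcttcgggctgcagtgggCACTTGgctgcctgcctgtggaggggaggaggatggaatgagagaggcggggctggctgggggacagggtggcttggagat
Eno1: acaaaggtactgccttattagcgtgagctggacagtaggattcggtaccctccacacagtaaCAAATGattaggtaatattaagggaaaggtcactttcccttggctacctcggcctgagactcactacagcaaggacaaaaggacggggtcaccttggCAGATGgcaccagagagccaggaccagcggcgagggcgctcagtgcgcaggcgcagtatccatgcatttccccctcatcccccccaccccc
Ckb: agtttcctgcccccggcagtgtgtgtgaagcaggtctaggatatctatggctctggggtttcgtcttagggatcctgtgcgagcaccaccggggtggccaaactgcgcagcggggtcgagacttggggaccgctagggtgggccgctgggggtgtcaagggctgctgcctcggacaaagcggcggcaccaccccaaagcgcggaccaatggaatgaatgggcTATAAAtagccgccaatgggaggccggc

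All 10 genes had a RefSeq promoter, with 15 starts between them. An E-box was present before at least 1 start of 5 of 5 muscle-type genes and of 1 of 5 non-muscle genes, Eno1, against 66.2% of all 32841 promoter windows of this length. Pgam2 held 5 of them. The GC box was found in 0 of 5 muscle-type and 3 of 5 non-muscle genes, against 32.7% of all windows. The exact letters TATAAA were found in 0 of 5 and in Ckb alone of the other 5, against 12.4%. Other forms of a TATA box were not searched for, so genes without these letters may still hold one. The motif ACGTG was found in 2 of 5 genes of each kind (16.6% of all windows) and the MEF2 site in Pgam2 and Ckb (2.92%). GC content ran from 36.4 to 64.8% in muscle-type windows and from 55.6 to 71.2% in non-muscle windows, with a median of 52.4% over all windows. Genes with several starts had several chances to match, and a match describes the letters and no more.

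The libraries held 23147873 to 29065162 counts, and the lowest member value was far above the level of 3 counts, which lies at 0.108 to 0.141 CPM (read counts scaled to a common library size, with TMM factors). Tissue content differed strongly between libraries. The 24 striated muscle markers took 6.65 to 11.3% of counts in isotype libraries and 12.1 to 16.2% in DTA-1 libraries, and 23 squamous markers took 3.92 to 5.32% and 0.878 to 3.01%. DTA-1 replicate 2 had the highest muscle sum, the lowest squamous share and by far the most red cell transcripts (2899 CPM over 5 markers, against 85.1 to 172 elsewhere). DTA-1 replicate 3 had the highest fat cell marker sum (1463 CPM, against 144 to 491 elsewhere), and isotype replicate 3 carried 1022 CPM of stomach markers, against 0.171 to 4.9 elsewhere. Leukocyte marker sums ran from 123 to 816 CPM with isotype and from 159 to 1238 CPM with DTA-1, and no marker of the 11 cell type lists was at 0 in every library.

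In every library the muscle-type isoform was the more abundant member of each pair as counted. Per kilobase of transcript it made up 89.1 to 99.9% of the pair, the lowest share being that of Ckm in isotype replicate 2 and of Pfkm in the same library. CPM per kilobase, averaged over the 6 libraries, placed Ckm first at 2400, followed by Eno3 at 1760, Pygm at 1250, Pgam2 at 588 and Pfkm at 392. The non-muscle genes came after them, with Ckb at 74.6, Eno1 at 33.6, Pfkp at 18.7, Pygl at 5.62 and Pgam1 at 4.58. The levels of Eno1 and Pgam1 are uncertain, because 72.2 and 41.5% of their 50-base windows recur in other annotated genes. Ckm exceeded Eno3 in 4 of 6 libraries, Ckb exceeded Eno1 in 4 of 6 and Pygl exceeded Pgam1 in 3 of 6, so these neighbours did not hold a fixed order. The other neighbours kept their order in 6 of 6 libraries. Dividing instead by the length of all annotated exons lowers the levels of Pfkp, Eno1, Pygl and Ckb most. Pfkp then counts 13401 bp rather than 4145 bp and Eno1 5379 bp rather than 2027 bp. Pgam1 changes less, at 1982 bp rather than 1775 bp.

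All 5 muscle-type isoforms had a higher mean in DTA-1 libraries, by 1.79- to 1.97-fold, and 4 of 5 non-muscle isoforms had a lower mean. None of the 10 differences passed the threshold. The median log2 fold change (DTA-1 over isotype) was 0.93 for the muscle-type genes and -0.50 for the non-muscle genes, beside -0.03 over all tested genes, of which 47.1% were positive. The quasi-likelihood test of edgeR, with Benjamini-Hochberg adjustment over all genes, called 0% of genes at 0.05, the lowest adjusted p being 0.39. In bulk tissue, fewer cells of a type and less RNA per cell cannot be told apart.

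Pfkm (ENSMUSG00000033065, chr15:98092589-98132451, plus strand, GRCm38), the muscle phosphofructokinase, measured 778, 588 and 1007 CPM in isotype replicates 1, 2 and 3 and 1048, 1737 and 1620 CPM in DTA-1 replicates 1, 2 and 3. It was the single member whose groups did not overlap, although DTA-1 replicate 1 lay just above isotype replicate 3. The means were 791 ± 210 and 1468 ± 369 CPM (SD, n = 3 each). The edgeR log2 fold change was 0.89 ± 0.32 (SE), with an adjusted p of 0.39. Over all tested genes, 8.6% had groups that did not overlap with DTA-1 higher and 9.38% with DTA-1 lower, beside 1 of 5 muscle-type genes as higher and 0 of 5 non-muscle genes as lower.

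Pgam2 (ENSMUSG00000020475, chr11:5801640-5803733, minus strand), the muscle mutase, measured 432, 237 and 351 CPM in isotype libraries and 405, 769.6 and 771 CPM in DTA-1 libraries, in replicate order. DTA-1 replicate 1 was below isotype replicate 1, and the other two DTA-1 libraries were above every isotype library. The log2 fold change was 0.93 ± 0.34 (edgeR, adjusted p = 0.39).

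Eno3 (ENSMUSG00000060600, chr11:70657202-70662513, plus strand), the muscle enolase, measured 1726, 1138 and 2292 CPM with isotype and 2194, 4476 and 3490 CPM with DTA-1. Its log2 fold change was the largest of the 10 at 0.98 ± 0.39 (edgeR, adjusted p = 0.39). The groups overlapped through DTA-1 replicate 1 and isotype replicate 3.

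Pygm (ENSMUSG00000032648, chr19:6384399-6398459, plus strand), the muscle glycogen phosphorylase, measured 2159, 1860 and 3697 CPM with isotype and 3656, 6086 and 4046 CPM with DTA-1. Its log2 fold change was 0.84 ± 0.38 (edgeR, adjusted p = 0.401). The overlap was narrow, with DTA-1 replicate 1 a little under isotype replicate 3.

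Ckm (ENSMUSG00000030399, chr7:19404776-19422841, plus strand), the muscle creatine kinase, measured 3233, 3094 and 7300 CPM with isotype and 7509, 12000 and 6384 CPM with DTA-1. Isotype replicate 3 was above DTA-1 replicate 3, and Ckm had the widest error of the muscle-type genes, with a log2 fold change of 0.93 ± 0.47 (edgeR, adjusted p = 0.416).

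Isotype replicate 3 was the highest isotype library for 4 of these 5 genes, and Pgam2 was the exception. For all 5, 3 of 3 DTA-1 libraries were above the isotype mean. At an unadjusted edgeR p under 0.05 there were 3 of 5 muscle-type genes (Pfkm, Pgam2 and Eno3), while 5.21% of all tested genes reached that level as higher and 7.52% as lower with DTA-1. The 5 genes come from the same libraries and move together, so they are not 5 independent readings. DESeq2 called 0.267% of its tested genes higher and 0.852% lower, and 0 of the 10 members, whose lowest adjusted p there was 0.126, for Pfkm. With each library left out in turn, the log2 fold changes of the muscle-type genes ran from 0.58 to 1.47, and none passed the edgeR threshold, the lowest adjusted p being 0.0886, for Pgam2 without DTA-1 replicate 1.

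**Figure D1:**
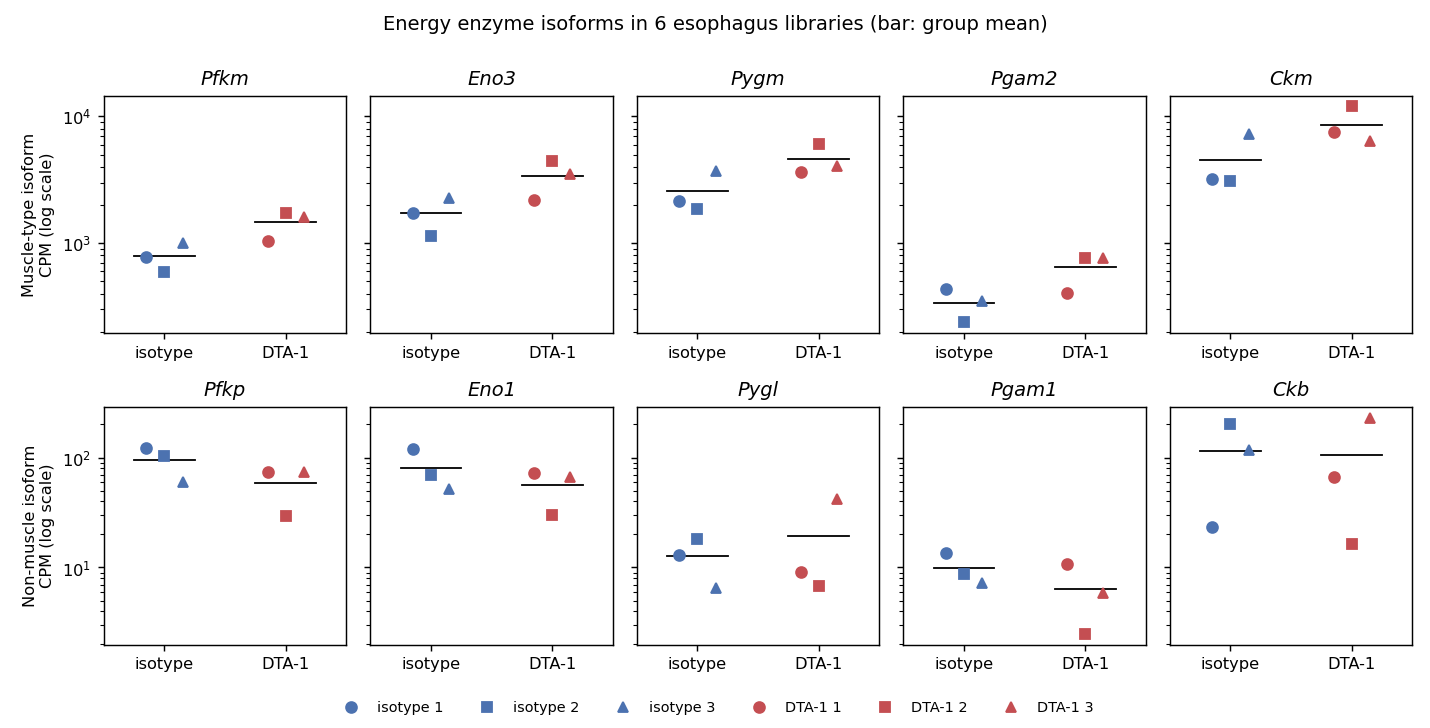
CPM (TMM-scaled, log axis) of the 5 muscle-type isoforms (upper row) and the 5 non-muscle isoforms (lower row) in 3 isotype (blue) and 3 DTA-1 (red) libraries, with bars at group means. Pfkm alone has groups that do not overlap, and Ckb spans 16.3 to 231 CPM without following the groups.

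Of the non-muscle genes, Pfkp (ENSMUSG00000021196, chr13:6579768-6648777, minus strand), the platelet-type phosphofructokinase, measured 123, 104 and 60.5 CPM in isotype libraries and 74.4, 29.3 and 74.1 CPM in DTA-1 libraries. The log2 fold change was -0.69 ± 0.41 (edgeR, adjusted p = 0.462). DTA-1 replicate 2 was the sole library below the isotype range.

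Eno1 (ENSMUSG00000063524, chr4:150236721-150248879, plus strand), the enolase of most tissues, measured 119, 69.7 and 51.4 CPM with isotype and 72, 30.1 and 67 CPM with DTA-1, a log2 fold change of -0.50 ± 0.41 (edgeR, adjusted p = 0.577). Again isotype replicate 1 was highest and DTA-1 replicate 2 lowest.

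Pgam1 (ENSMUSG00000011752, chr19:41911923-41918660, plus strand), the widely used mutase, measured 13.6, 8.79 and 7.29 CPM with isotype and 10.7, 2.5 and 5.86 CPM with DTA-1. Its log2 fold change was -0.64 ± 0.52 (edgeR, adjusted p = 0.577). Isotype replicate 1 and DTA-1 replicate 2 held the ends of its range too. With each library left out in turn, the log2 fold change of Pgam1 ran from -1.24, without DTA-1 replicate 1, to -0.26, without DTA-1 replicate 2. That of Eno1 ran from -0.72 to -0.09, the latter without isotype replicate 1, and that of Pfkp from -0.91, without isotype replicate 3, to -0.37, without DTA-1 replicate 2. These 3 stayed negative throughout and none passed the edgeR threshold.

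Pygl (ENSMUSG00000021069, chr12:70190811-70231488, minus strand), the liver-type glycogen phosphorylase, measured 12.9, 18.3 and 6.53 CPM with isotype and 9.18, 6.78 and 41.5 CPM with DTA-1. The positive log2 fold change of 0.61 ± 0.72 (edgeR, adjusted p = 0.703) rested on DTA-1 replicate 3, without which it was -0.65.

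Ckb (ENSMUSG00000001270, chr12:111669361-111672338, minus strand), the brain-type creatine kinase, measured 23.2, 203 and 118 CPM with isotype and 67.2, 16.3 and 231 CPM with DTA-1. It varied 14.2-fold over the libraries, the widest span of the 10 genes, with a log2 fold change of -0.13 ± 1.0 (edgeR, adjusted p = 0.96). High and low libraries occurred in both groups.

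Within each library, the ratio of muscle-type to non-muscle counts needs no library scaling. All 5 mean log2 ratios were higher with DTA-1, and in none of the 5 were the groups apart. The smallest two-sided p that 3 against 3 libraries allow in an exact permutation test is 0.1. These ratios use the same counts as the fold changes and are not separate evidence.

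For Pgam2 over Pgam1 the log2 count ratios were 4.99, 4.75 and 5.59 with isotype and 5.24, 8.27 and 7.04 with DTA-1. The means were 5.11 ± 0.43 and 6.85 ± 1.52 (SD), a 3.34-fold difference in ratio, with an exact permutation p of 0.2. DTA-1 replicate 1 stayed within the isotype range.

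For Pfkm over Pfkp the log2 count ratios were 2.66, 2.50 and 4.06 with isotype and 3.82, 5.89 and 4.45 with DTA-1, a 3.13-fold difference (exact permutation p = 0.2). For Eno3 over Eno1 they were 3.86, 4.03 and 5.48 with isotype and 4.93, 7.22 and 5.70 with DTA-1, a 2.81-fold difference (exact permutation p = 0.2). In both pairs isotype replicate 3 exceeded DTA-1 replicate 1 and was below the other two DTA-1 libraries.

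For Ckm over Ckb the log2 count ratios were 7.12, 3.93 and 5.95 with isotype and 6.80, 9.53 and 4.79 with DTA-1, a 2.59-fold difference (exact permutation p = 0.5). For Pygm over Pygl they were 7.38, 6.67 and 9.15 with isotype and 8.64, 9.81 and 6.61 with DTA-1, a 1.54-fold difference (exact permutation p = 0.8). The order of libraries in these 2 pairs did not follow the groups.

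DTA-1 replicate 2 had the highest ratio in all 5 pairs. Without it the differences in mean log2 ratio were 1.06 for Pfkm over Pfkp, 0.86 for Eno3 over Eno1, -0.11 for Pygm over Pygl, 1.03 for Pgam2 over Pgam1 and 0.13 for Ckm over Ckb. With it they were 1.65, 1.49, 0.62, 1.74 and 1.37. That library also had the red cell sum of 2899 CPM and the squamous share of 0.878% given above, and their part in the ratios was not tested.

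Other muscle and non-muscle isoform pairs were read in the same way from a list of 10, of which Fbp2 over Fbp1 could not be formed because Fbp1 had 0 counts in a library. The remaining 9 of 9 mean log2 ratios were higher with DTA-1, with a median difference of 1.19 beside 1.49 for the 5 energy enzyme pairs. In 4 of the 9 the groups did not overlap (Phkg1 over Phkg2, Cox6a2 over Cox6a1, Cox8b over Cox8a and Ampd1 over Ampd2), which were named after their values were seen. No share without overlap was computed for ratios of other genes, so this count has no background beside it. The largest differences were those of the glucose transporters Slc2a4 over Slc2a1 (1.56, exact permutation p = 0.2) and of the mitochondrial creatine kinases Ckmt2 over Ckmt1 (1.45, exact permutation p = 0.4). The smallest were those of the respiratory chain subunits Cox7a1 over Cox7a2 (0.35, exact permutation p = 0.4) and of the phosphorylase kinase subunits Phka1 over Phka2 (0.88, exact permutation p = 0.2).

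**Figure D2:**
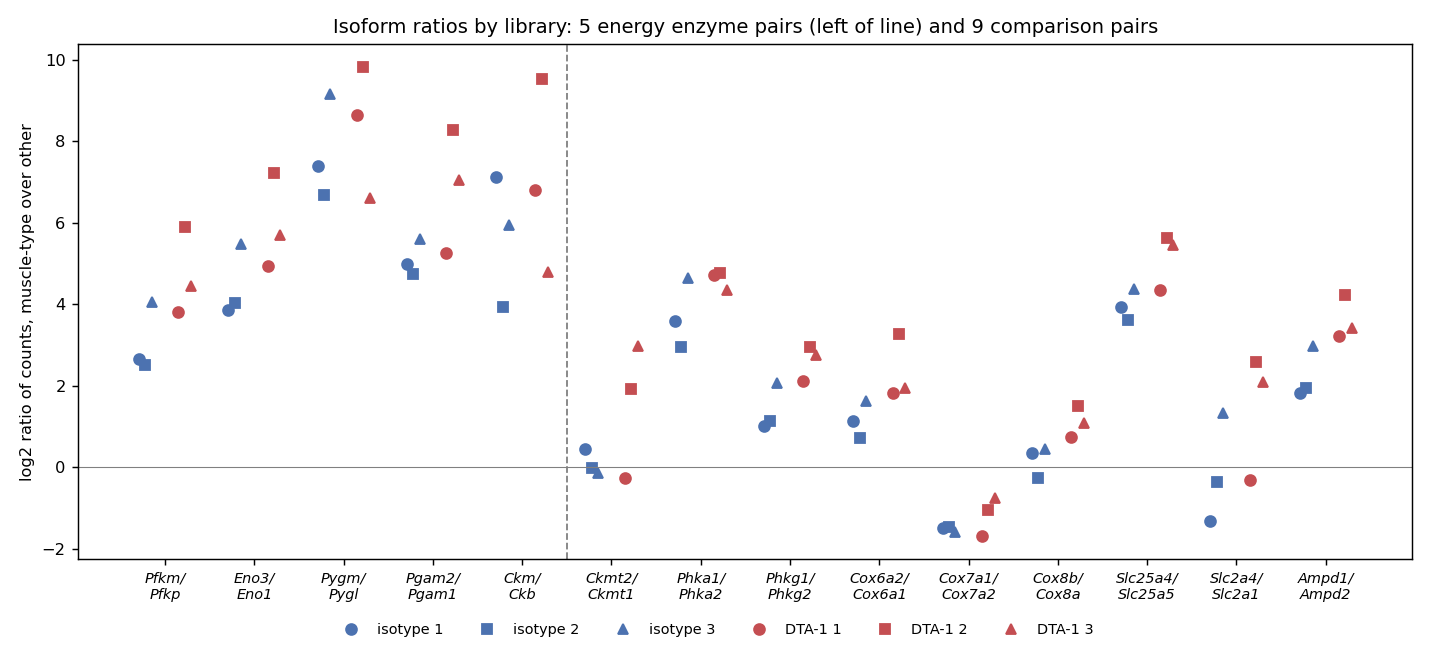
Log2 ratio of counts, muscle-type over the other isoform, in each library for the 5 energy enzyme pairs (left of the dashed line) and 9 comparison pairs (right), isotype in blue and DTA-1 in red. In the 5 energy enzyme pairs DTA-1 replicate 2 is highest each time and the groups overlap.

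Set against striated muscle content, the muscle-type isoforms were nearly level between the groups. Per 1000 counts of the 24 striated muscle markers, Pfkm stood at 10.2, 10.1 and 8.5 in isotype libraries and at 8.39, 9.6 and 11.7 in DTA-1 libraries. The group means were 9.61 ± 0.96 and 9.89 ± 1.67, a log2 difference of 0.03 (exact permutation p = 1.0), where the difference in CPM had been 0.89. Pygm stood at 28.3, 32 and 31.2 and at 29.3, 33.6 and 29.2, a log2 difference of 0.01 (exact permutation p = 1.0).

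The corresponding log2 differences were 0.05 for Pgam2, 0.12 for Eno3 and 0.13 for Ckm, with exact permutation p of 0.8, 0.7 and 0.6. For each of these 5 genes the libraries of the groups overlapped. The non-muscle genes on the same scale had log2 differences of -0.61 for Pygl, -1.24 for Ckb, -1.38 for Eno1, -1.61 for Pfkp and -1.68 for Pgam1, with exact permutation p from 0.2 to 0.7. Against the 23 squamous markers, the muscle-type genes had log2 differences of 2.37 to 2.5 with no overlap between groups (exact permutation p = 0.1 each, the smallest possible). The non-muscle genes on that scale also had positive log2 differences in 5 of 5 cases, from 0.68 for Pgam1, 0.75 for Pfkp and 0.99 for Eno1 up to 1.75 for Pygl, with overlapping groups and exact permutation p from 0.3 to 0.6. They were thus lower per striated muscle count and higher per squamous count in the group means. The marker shares themselves did not overlap between groups, the striated one being higher and the squamous one lower with DTA-1. A gene level between the groups would take the same signs. One with an equal share of counts in every library would also show no overlap and an exact permutation p of 0.1. These signs, and the lack of overlap per squamous count, are therefore no result about the genes alone. These 20 comparisons were not adjusted, and each shares its marker sum with the others.

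**Figure D3:**
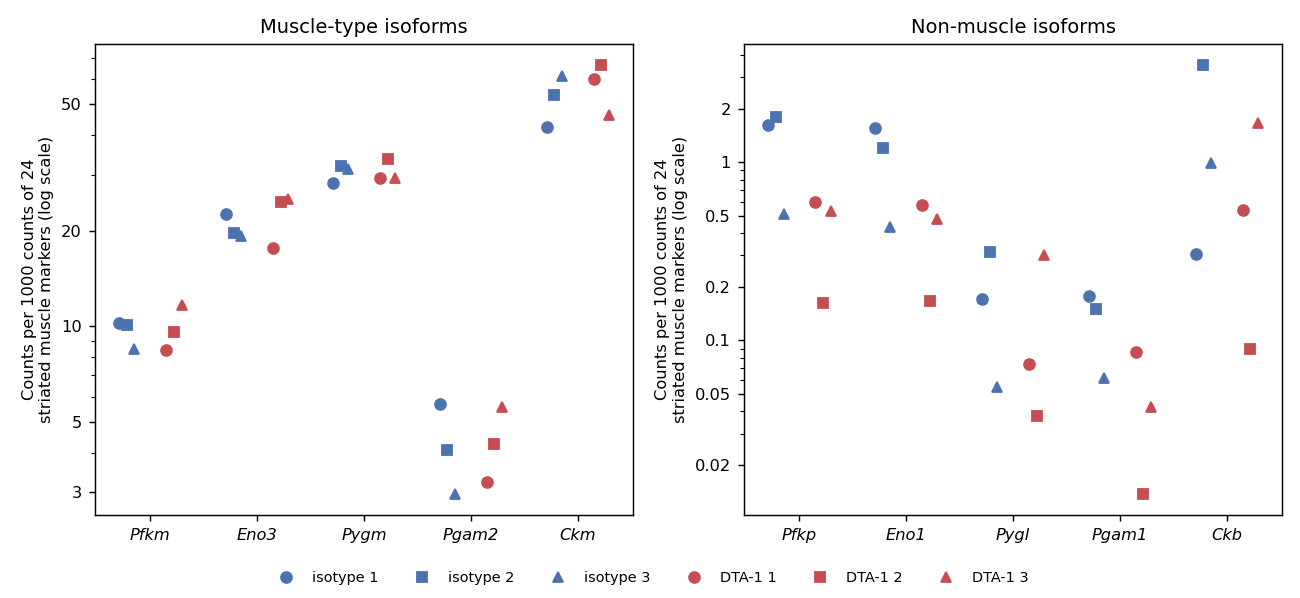
Counts of each isoform per 1000 counts of the 24 striated muscle markers (log axes), isotype in blue and DTA-1 in red. The groups overlap for each muscle-type gene (left), as with Pfkm at 8.5 to 10.2 with isotype and a wider 8.39 to 11.7 with DTA-1. Non-muscle genes (right) vary more.

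The striated muscle markers themselves were positive with DTA-1 in 22 of 24 cases, with a median log2 fold change of 0.83 and 0 called by edgeR. Of the 24, 9 had DTA-1 libraries all above isotype libraries, where 8.6% of all tested genes did. Their sum was 76260, 58080 and 118500 CPM in isotype libraries and 125000, 180900 and 138600 CPM in DTA-1 libraries. Of 15 pairs of libraries, the sum and Pfkm put 15 in the same order, as did 14 for Eno3 and Pygm, 13 for Ckm and 12 for Pgam2. These counts describe 6 libraries in which both quantities share the scaling.

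Basal squamous markers had lower means with DTA-1 in 10 of 10 cases and differentiated squamous markers in 13 of 13, with 0 called by edgeR. The DTA-1 libraries were all lower for 3 and 7 of them, as for 9.38% of all tested genes. The basal sum was 17480, 9949 and 5232 CPM with isotype and 11740, 3846 and 4883 CPM with DTA-1. Krt14 and Krt5 were its largest parts, with 9022 and 4941 CPM in isotype replicate 1. Krt15, on the same list, had another order, at 416, 547 and 572 CPM with isotype and 196, 289 and 23.1 CPM with DTA-1. Pgam1 followed the basal sum in 15 of 15 library pairs, Eno1 in 14 and Pfkp in 13. They did not follow the differentiated squamous sum, the larger of the 2 in 6 of 6 libraries (18980, 36530 and 40840 CPM with isotype, 19440, 5985 and 6208 CPM with DTA-1), in this way. Against it Pgam1 and Pfkp kept the order in 9 of 15 library pairs and Eno1 in 8. Per 1000 basal squamous counts Pgam1 ran from 0.649 to 1.39, a span of 2.15-fold where its CPM spanned 5.45-fold. Per 1000 of the same counts Eno1 spanned 2.23-fold and Pfkp 2.39-fold, where their CPM spanned 3.94- and 4.19-fold.

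The name of epithelial isoforms fits these libraries in part. Pfkp, Eno1 and Pgam1 followed the basal squamous sum, of which Krt14 and Krt5 were the largest parts, and not the differentiated one. They also ran nearly opposite to the striated muscle sum, keeping its order in 3 of 15 library pairs for Pfkp and Pgam1 and 4 for Eno1. Which of the sums their order goes with was not tested. Ckb and Pygl followed the sums of other lists more closely than either squamous sum. Ckb kept the order of the smooth muscle sum in 14 of 15 library pairs, the closest of 11 marker lists. It kept the order of the fat cell sum in 12, the differentiated squamous sum in 10 and the basal squamous sum in 6. The 8 smooth muscle markers summed to 1214, 8481 and 6310 CPM with isotype and 3809, 1696 and 9616 CPM with DTA-1, with Ckb low where they were low. Per 1000 smooth muscle counts Ckb ran from 9.58 to 24, a 2.51-fold span against 14.2-fold in CPM. Pygl followed the fat cell sum in 12 of 15 library pairs, as many as Ckb did. It followed the smooth muscle, neural and glial, fibroblast and endothelial sums in 10 each. For the basal squamous sum the number was 8 and for the differentiated squamous sum 6. Its highest value and the highest fat cell sum were both in DTA-1 replicate 3. Per 1000 fat cell counts Pygl still spanned 3.32-fold, from 27.1 to 89.9. Over the 110 comparisons of a member with a marker list, 2 reached 15 of 15.

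**Figure D4:**
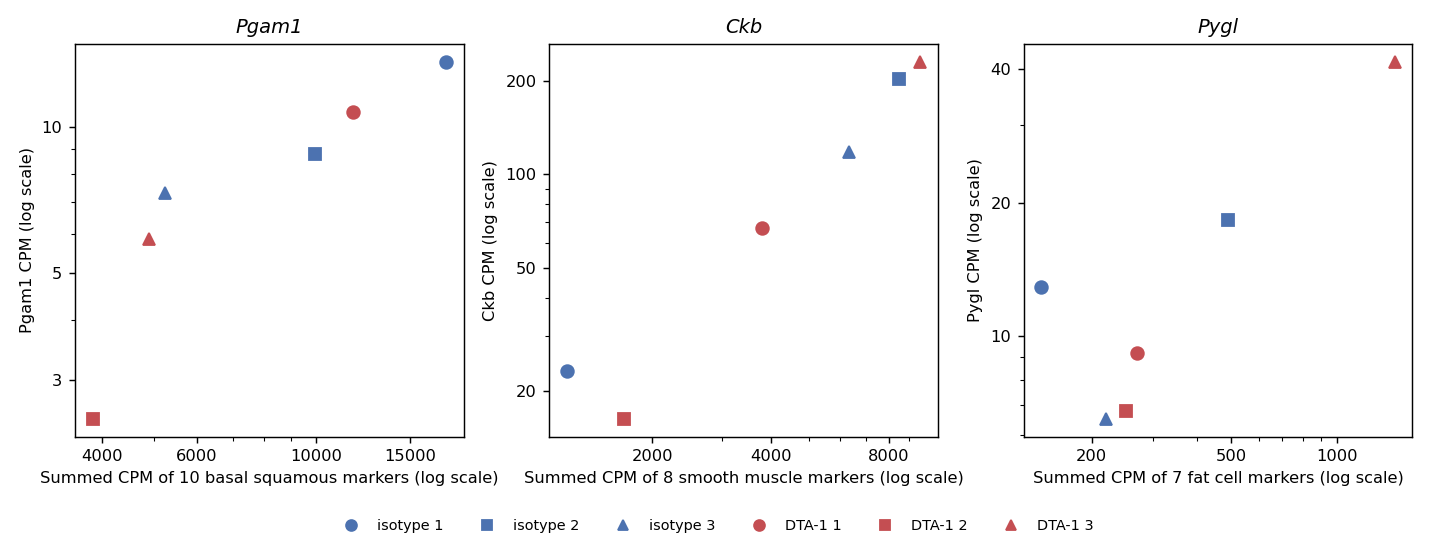
CPM of Pgam1, Ckb and Pygl (vertical, log axes) against the summed CPM of basal squamous, smooth muscle and fat cell markers (horizontal, log axes), with 1 point for each of the 6 libraries. Pgam1 keeps the order of the basal squamous sum in 15 of 15 library pairs, Ckb that of smooth muscle in 14 and Pygl that of fat cells in 12.

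Members were also compared with each other by the root mean square difference of their centred log2 CPM over the 6 libraries. This reads the same counts in another way and is not separate evidence of the division. Pairs of muscle-type genes differed by 0.125 to 0.555, the closest being Pfkm and Eno3. A muscle-type and a non-muscle gene differed by 1.01 to 1.79. Non-muscle genes differed among themselves by 0.202, for Pfkp and Eno1, up to 1.48, so the latter group was not a single pattern.

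Over 13965 other named genes, the nearest profiles to Pfkm were those of Jsrp1 (0.0422) and Alpk3 (0.0551), and to Pygm those of Trim54 (0.045) and Adcy2 (0.0633). Klhl31 and Myl1 were nearest to Pgam2, Sim1 and Tmem38a to Ckm, and Pgpep1l and Ak1 to Eno3, at 0.0641 to 0.0973. The nearest to Pfkp were Abracl (0.121) and Eva1a, to Eno1 Pxdc1 (0.0824) and Mif, and to Pgam1 Csta1 (0.167) and Syce2. Ckb was nearest to Tagln (0.177), itself on the smooth muscle list, and Ppp1r14a (0.192). Pygl had the most distant nearest genes, Prkar2b (0.211) and Ffar4 (0.303). With 6 libraries and this many candidates, these values are descriptions.

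The third isoforms of 3 of the enzymes were low beside the muscle-type forms. Pfkl, the liver phosphofructokinase, measured 107.5 ± 61.1 CPM with isotype and 68.2 ± 30.4 CPM with DTA-1 (edgeR log2 fold change -0.66, adjusted p = 0.556). Pygb, the brain glycogen phosphorylase, measured 71.1 ± 35 and 60.6 ± 46.6 CPM (log2 fold change -0.23, edgeR adjusted p = 0.871). Eno2, the neuronal enolase, stood near 2.45 CPM in both groups (log2 fold change 0.01, edgeR adjusted p = 0.992).

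Among the other genes of glycolysis, 24 of 27 were tested, 18 with a positive and 6 with a negative fold change and 0 called by edgeR, with a median log2 fold change of 0.22. Groups did not overlap for 4 as higher and 2 as lower with DTA-1, against 8.6 and 9.38% of all tested genes. The 3 with the smallest p were the hexokinases Hk2 and Hk1 and the isomerase Tpi1. Hk2, the form abundant in muscle, measured 285 ± 49.8 and 465 ± 89.6 CPM with isotype and DTA-1 (log2 fold change 0.71 ± 0.23), and the widely used Hk1 measured 130 ± 23.9 and 79.8 ± 21.2 CPM (-0.70 ± 0.24), both with an edgeR adjusted p of 0.39. Tpi1 measured 556 ± 93.1 and 813 ± 129 CPM (0.55 ± 0.24, edgeR adjusted p = 0.397).

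Of 19 tested genes of glycogen handling, 15 were positive and 4 negative, with 0 called by edgeR and a median log2 fold change of 0.69. In 4 the DTA-1 libraries were all higher and in 1 all lower, where 8.6 and 9.38% of all tested genes were so. Pgm1, a phosphoglucomutase, measured 155 ± 30.7 and 281 ± 71.8 CPM (log2 fold change 0.86 ± 0.26). Phkg1, a catalytic subunit of phosphorylase kinase, measured 24.8 ± 9.76 and 51.7 ± 15.5 CPM (1.06 ± 0.33). Ppp1r3a, the muscle glycogen-targeting subunit of protein phosphatase, measured 188 ± 69.6 and 404 ± 140 CPM (1.10 ± 0.35). Each of the 3 had an edgeR adjusted p of 0.39.

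Of the 5 other creatine genes, 4 were positive and 1 negative, 0 without overlap and 0 called by edgeR, with a median log2 fold change of 0.53. Ckmt1, the ubiquitous mitochondrial creatine kinase, measured 164 ± 18.1 and 86.2 ± 49.4 CPM (log2 fold change -0.93 ± 0.38, edgeR adjusted p = 0.391). Gamt, which makes creatine, measured 20.1 ± 8.44 and 39.2 ± 18.6 CPM (0.96 ± 0.45, edgeR adjusted p = 0.405). Ckmt2, the muscle mitochondrial form, measured 179 ± 53.7 and 267 ± 184 CPM (0.57 ± 0.50, edgeR adjusted p = 0.597).

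Copies elsewhere in the genome bear unequally on the 2 sets. The coding sequences of the pairs were 69.8 to 77.8% identical, with no shared run longer than 29 bp. Cut into windows of 50 bases, however, 72.2% of the Eno1 transcript recurs in another annotated gene, chiefly Eno1b, whose coding sequence is 99.4% identical to that of Eno1. For Pgam1 the share was 41.5%, chiefly with pseudogene Pgam1-ps2, and for Ckb 21.9%, chiefly with Gm12892. Eno1b had 0 counts in 6 of 6 libraries, and Pgam1-ps1 and Pgam1-ps2 had 0 or 1.

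The share of such windows was 17.1% for Pfkp and 11.7% for Ckm, in both cases with genes at the same locus. It was 1.3% for Pygl, 0.46% for Pygm and 0% for Pfkm, Eno3 and Pgam2. At 100 bases the shares were 59% for Eno1, 39.7% for Pgam1 and 11% for Ckb. How the counting treated reads that fit several places is not given in the sources used here. In the same libraries Gapdh, with 90.4% of windows shared, stood at 3.57 to 6.39 CPM, and Pgk1, with 68%, at 10.3 to 17.9 CPM. Aldoa, with 13.9%, stood at 4118 to 12650 CPM. Sharing did not always go with low counts, as Pkm, with 34.4%, stood at 698 to 1053 CPM. Gpi1, with 25.3%, stood at 320.5 to 498.7 CPM. Levels of Eno1 and Pgam1, and the ratios per kilobase that use them, are therefore uncertain, and their part in the low values was not tested. Exons also overlap those of neighbours. Ckm shares 451 bp (15.5% of its exons) with the antisense gene A930016O22Rik, and Pfkp shares 748 bp (5.58%) with Pitrm1 on the other strand. Pfkm shares 341 bp (10.2%) with Gm26513 on its own strand, outside the transcript used for the windows, and 18 bp with Senp1 on the other strand. Gm26513 had 1 to 6 counts a library. The strand setting is not given, so reads there cannot be assigned with certainty.

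**Figure D5:**
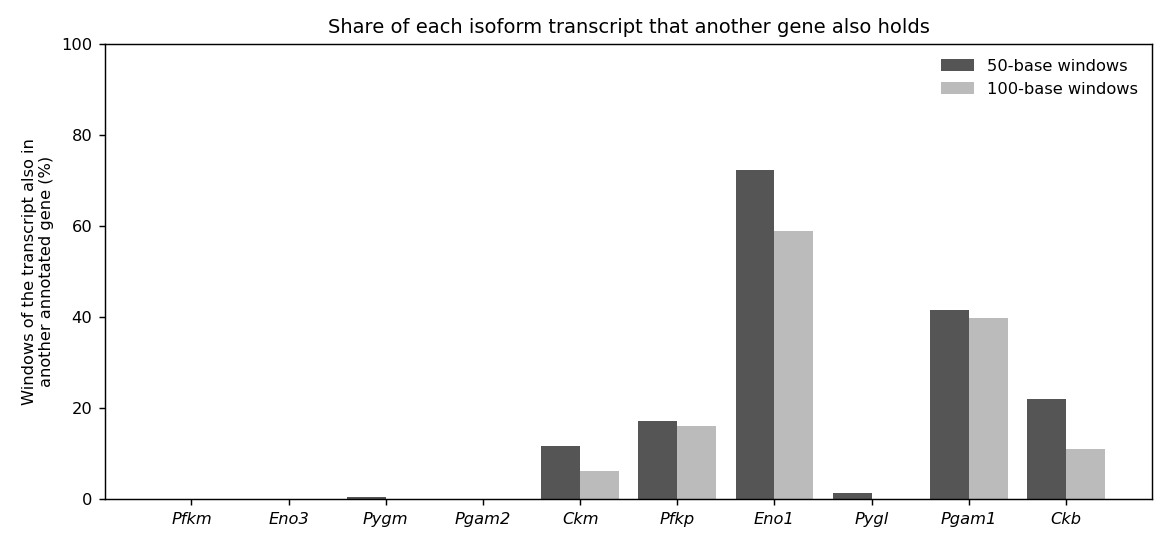
Share of each transcript's windows of 50 bases (dark) and 100 bases (light) that another annotated gene also holds, for the 5 muscle-type genes (left) and the 5 non-muscle genes (right). Eno1 reaches 72.2% and Pgam1 41.5%, while Pfkm, Eno3 and Pgam2 are at 0%.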

How the data were processed

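RNA was sequenced from 6 mouse esophagus libraries, 3 isotype and 3 DTA-1. For each library the authors deposited raw read counts by Ensembl gene ID, as whole numbers that had not been normalized. The submitters' processing notes name build mm10 and the tools STAR, HTSeq 0.6.1p1, cutadapt 1.13 and DESeq2 1.14.1. What each did, the strand setting and the read length are not given in the sources used.

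Genes were kept by filterByExpr (minimum count 10, minimum total 15), TMM-scaled and compared in edgeR 4.0.16 (R 4.3.3) by a robust quasi-likelihood fit with treatment alone, at an adjusted p of 0.05 over all 15763 genes. Alternatives were limma-voom (limma 3.58.1), DESeq2 1.42.0, 3 other scalings, TMM factors without muscle genes, 2 other filters, the replicate number as a block, and each library left out. Isoform ratios were compared by an exact two-sided permutation test over libraries, with no adjustment. Levels per kilobase used 1 transcript a gene from GENCODE M21 (GRCm38), a length chosen after the data were seen, with all annotated exons as the other choice. Promoters are RefSeq sequences on GRCm38.p6, and symbols follow the reference table, with 153 of 54232 IDs unmatched. Aldoa names 2 IDs, of which the lower was used.

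The members, gene lists and pairs were chosen with earlier results of these data known. Named genes are the 10 members, the 2 largest and 2 smallest of the comparison pairs, the 3 genes of smallest p in each pathway list, Pfkl, Eno2, Pygb and the 2 nearest profiles to each member. Other named genes were chosen after their values were seen.

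The edgeR step was tested on simulated data for DTA-1 against isotype over 15763 genes. Of 100 genes set to change 4-fold it found 52%, and of 100 set to change 2-fold 2%, while 2 of its 56 calls were false. The floor of 3 counts covers counting error only. The most alike libraries were isotype replicate 3 and DTA-1 replicate 1, which belong to opposite groups. They still differed by more than sampling noise, with a median chi-square over genes of 3.98 where noise gives 0.455. The most alike libraries of the same group, DTA-1 replicates 2 and 3, stood at 5.75.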

Additional observations from a re-analysis of the deposited data

How the results depend on the processing

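The edgeR count of called genes was 0 in the fit reported, with 2006 genes at an unadjusted p under 0.05. It was also 0 with 3 other scalings, with TMM factors computed without muscle genes, with both other filters and with limma-voom (2193 genes at an unadjusted p under 0.05). DESeq2 called 180, 43 higher and 137 lower. With each library left out in turn the count ran from 0 to 601, the latter without DTA-1 replicate 1 (62 higher and 539 lower). No member passed the threshold in any of these fits. Of 193 settings over the 10 fold changes and 5 ratios, 188 kept their direction and 5 reversed, all by leaving out a library. The side of the threshold was compared for the fold changes alone, and none crossed it. For the ratios, the block setting returns the main difference by construction and could not reverse. With libraries left out, the log2 fold change of Ckb ran from -1.46 to 0.58. It was 0.58 on omitting isotype replicate 2, 0.11 on omitting DTA-1 replicate 1 and 0.38 on omitting DTA-1 replicate 2. That of Pygl was -0.65 without DTA-1 replicate 3, in a range of -0.65 to 1.01. The log2 difference of Pygm over Pygl was -0.11 without DTA-1 replicate 2, in a range of -0.11 to 1.49. The cause was not tested. Scaling by library totals alone moved the median of all genes from -0.03 to -0.19 on the log2 scale and the muscle-type genes to 0.70 to 0.83, and no member changed direction. Adding Pygb to Pygl moved the difference in that ratio from 0.62 to 1.16. Exon lengths in place of transcript lengths, an alternative added after the data were seen, moved the mean Pfkm over Pfkp ratio per kilobase from 13.8 to 38.3 with isotype and from 45.8 to 127.5 with DTA-1. With the replicate number as a block (replicate block) edgeR called 0 genes, and no member changed its call. Same-numbered libraries correlated at 0.02, -0.33 and -0.09 in their deviations. Isotype replicate 1 correlated best with DTA-1 replicate 2 (0.16) and isotype replicate 2 with DTA-1 replicate 3 (0.36). Same-numbered libraries thus showed no shared variation, which does not tell whether they were handled in pairs. The block test of ratios cannot go below an exact permutation p of 0.25. With 3 libraries a group, differences of 2-fold were seldom recovered in simulated data, and every member value lay above the floor of 3 counts.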
